A study of Caenorhabditis elegans with 4 samples.

Results

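Autophagy delivers cytoplasm and organelles to the lysosome inside a double membrane called the autophagosome. The Atg1 kinase complex and a phosphatidylinositol 3-kinase complex start the membrane, ATG9 vesicles and lipid transfer proteins extend it, and ubiquitin-like proteins of the Atg8 family are coupled to its lipids, where they bind cargo receptors. In *Caenorhabditis elegans* the process clears maternal and paternal components from the embryo and takes part in stress survival and ageing of somatic tissues. The 8 genes described here, chosen by name, cover these steps: *unc-51*, *bec-1*, *atg-9*, *atg-18*, *atg-7*, *lgg-1*, *lgg-2* and *sqst-1*. Each matched 1 row of the 20181 rows of the count table used, through its WormBase identifier, and all 8 passed the filter on low counts, as did 13101 genes in all.

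The samples were gonads dissected from N2, the wild-type laboratory strain (2 libraries), and intact animals carrying the *glp-4* (bn2) mutation (2 libraries), both young adults fed on OP50 bacteria and taken at around 50 gonads or worms per extraction. The bn2 allele is temperature-sensitive and leaves adults raised at the restrictive temperature with very few germ cells. No growth temperature is stated in the labels. The series set out to define germline and somatic transcripts. Genotype and tissue change together between the groups, and their parts in a difference cannot be told apart.

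Library totals ranged from 19538620 to 25624824 counts. The 6 germline markers summed to 15056 and 15703 CPM (TMM-adjusted counts per 1e+06) in gonads and to 179 and 198 CPM in whole worms. The 6 intestine markers summed to 186 and 141 CPM in gonads and to 35486 and 43029 CPM in whole worms. Most of the gonad sum came from *vit-2* (72.0 and 51.9 CPM) and *vit-6* (104 and 79.6 CPM), while *elt-2* had 2 and 2 counts there. Of 3 epidermis markers, *dpy-7* and *rol-6* had 0 counts in both gonad libraries, and *col-19* had 81 and 57 counts (3.84 and 2.55 CPM). All 3 were whole-worm-enriched. Muscle, pharynx, neuron and coelomocyte markers were all whole-worm-enriched. The 3 sperm markers summed to 59.8 and 66.5 CPM in gonads against 0.695 and 2.09 CPM in whole worms. Of these, *spe-44* alone held 58.1 and 65.1 CPM in gonads, and *spe-11* held 1.61 and 1.25 CPM. The third, *spe-9*, had 1 and 3 counts in gonads against 1 and 1 in whole worms and was not tested. Markers of the somatic gonad had counts in both groups and split, with *inx-8* gonad-enriched at 63.3 against 24.8 CPM (group means), *inx-9* not called, and *lim-7*, *ceh-18* and *fkh-6* whole-worm-enriched. The part of these residual levels in the results below was not tested.

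The 8 genes did not move as a block. The Atg8 gene *lgg-1*, the cargo receptor gene *sqst-1* and the kinase gene *unc-51* were higher in whole worms, by 4.70-fold, 8.81-fold and 2.43-fold. The Atg8 gene *lgg-2*, *bec-1*, *atg-9* and *atg-18* were higher in gonads, by 2.27-fold to 3.82-fold. The remaining *atg-7* was also higher in gonads, by 1.78-fold. Counts were compared with the quasi-likelihood test of edgeR, and a gene was called enriched when its Benjamini-Hochberg adjusted p was under 0.05 and it differed at least 2-fold.

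By that definition 4 of the 8 genes were gonad-enriched, where 30.9% of all tested genes were, and 3 were whole-worm-enriched, where 53.1% were. All 8 passed the adjusted p alone, as did 93% of all tested genes, 5 of them higher in gonads (36.4% of all tested genes) and 3 higher in whole worms (56.6%), and the values of the groups did not overlap for any of the 8, as for 96.4% of all tested genes. Both of these counts are close to the background, and the account below rests on the size and direction for each gene. The median log2 fold change, gonad minus whole worm, was 1.01 over the 8 genes and -1.50 over all tested genes. In absolute size the medians were 1.49 and 3.29. Whether the duplicates were grown as separate cultures is not stated, so the p-values measure the spread between these libraries, which may be technical. In RNA from whole tissues, fewer cells that express a gene and less RNA per cell cannot be told apart.

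**Figure D1:**
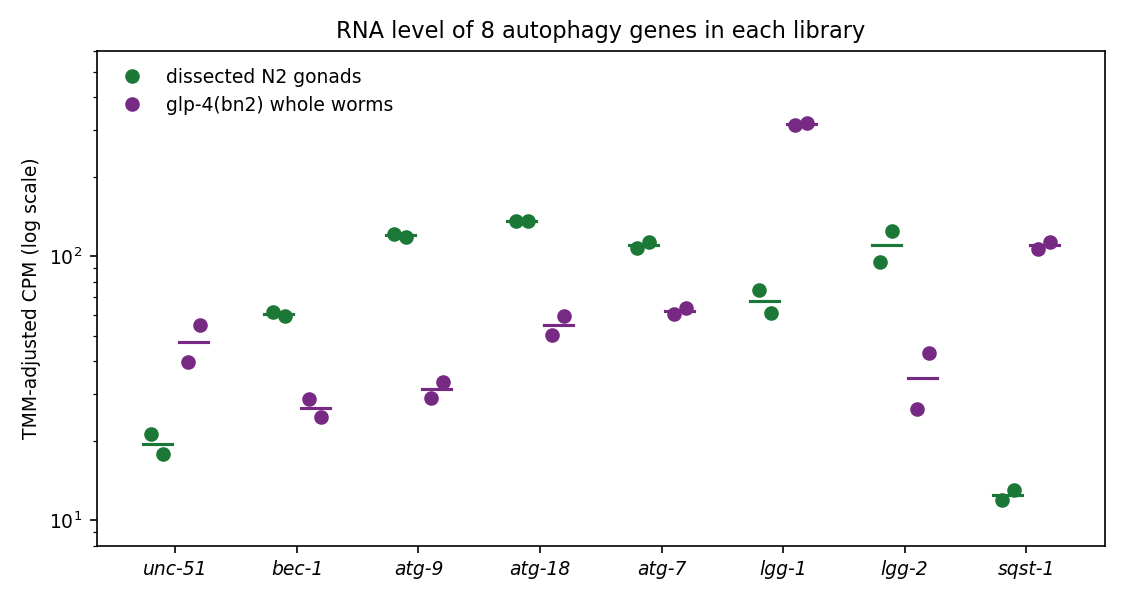
TMM-adjusted CPM (log axis) of the 8 autophagy genes in each library; points are libraries, horizontal lines are group means (n = 2), green is dissected gonads and purple is *glp-4* whole worms. The whole-worm points of *lgg-1* lie at 314 and 320.3 CPM, above its gonad points at 74.3 and 60.7 CPM, whereas the order is the opposite for *lgg-2*.

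The Atg8 family has 2 members in the worm, and they differed in opposite directions. LGG-1 is the member most like mammalian GABARAP and LGG-2 the one most like LC3, and both become attached to autophagosome membranes. The gene *lgg-1* (WBGene00002980, WBcel235 chromosome II, 6346960 to 6347719, minus strand) has 1 annotated transcript with 708 bases of exon, of which 369 are coding. Gonad libraries 1 and 2 held 74.3 and 60.7 CPM, and whole-worm libraries 1 and 2 held 314 and 320.3 CPM. Both whole-worm libraries were thus at least 4.23 times above the higher gonad library. The log2 fold change was -2.23 ± 0.14 (SE), with an edgeR adjusted p of 5.36e-12, and 45.9% of all tested genes had a lower one.

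The gene *lgg-2* (WBGene00002981, chromosome IV, 10934196 to 10935903, minus strand) has 2 annotated transcripts and 1039 bases of exon. Its gonad libraries held 95.4 and 125 CPM, and its whole-worm libraries 26.4 and 42.9 CPM. Its whole-worm libraries differed from each other by 1.63 times, the widest spread within a group among the 8 genes, and still both lay below both gonad libraries. Gonads exceeded whole worms by 1.66 ± 0.19 (SE) on the log2 scale, with an edgeR adjusted p of 1.01e-07. The value was 1.34 when whole-worm replicate 1 was left out and 2.04 when replicate 2 was.

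Set against each other inside a library, where no scaling between libraries enters, the Atg8 genes gave a ratio that separated the groups. Per kilobase of exon, *lgg-1* had 1.14 and 0.715 times the level of *lgg-2* in gonad libraries 1 and 2, so that neither gene was higher in both. In whole worms the ratio was 17.5 and 10.9. Without division by exon length the ratio was 0.779 and 0.487 in gonads, so that *lgg-2* had more counts in both libraries. The same count ratio was 11.9 and 7.46 in whole worms. On the log2 scale the mean ratio per kilobase was -0.15 ± 0.48 (SD, n = 2) in gonads and 3.79 ± 0.48 (SD, n = 2) in whole worms, a difference of -3.94. The exact two-sided permutation test gave p = 0.333, the smallest that 2 libraries against 2 allow, so the difference can be described and not tested this way.

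**Figure D2:**
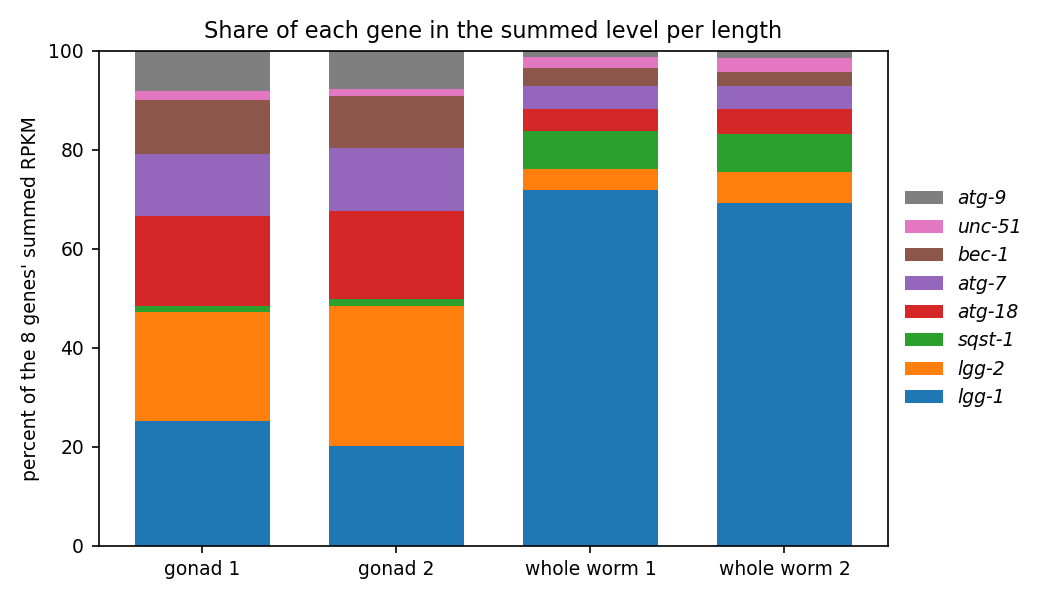
Share of each gene in the summed level per length (RPKM) of the 8 genes, in percent, for each library; each bar is 1 library and adds up to the whole sum. The share of *lgg-1* is 25.2% and 20.2% in gonads and 71.9% and 69.2% in whole worms.

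The cargo receptor gene *sqst-1* showed the steepest difference of the 8. Its product is the worm counterpart of mammalian SQSTM1, which binds ubiquitinated cargo and is itself degraded by autophagy, so that the protein can change without its RNA. The gene (WBGene00011737, chromosome IV, 12034282 to 12036891, plus strand) was read at 11.9 and 13.04 CPM in gonads, against 107 and 113 CPM in whole worms. The lower whole-worm library was 8.19 times above the higher gonad library. The log2 fold change was -3.14 ± 0.15 (SE), with an edgeR adjusted p of 3.75e-14. Steep as it was among the 8, 40.8% of all tested genes had a lower log2 fold change still.

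Of the genes that start the autophagosome, the kinase gene and the Beclin gene went opposite ways. The gene *unc-51* (WBGene00006786, chromosome V, 19995986 to 20004485, minus strand) encodes the Atg1/ULK kinase, which is also known for its role in axon growth in neurons. Its level was 21.2 and 17.7 CPM in gonads against 39.65 and 54.8 CPM in whole worms, with the groups apart but the whole-worm libraries 1.38 times apart themselves. The log2 fold change was -1.28 ± 0.17 (SE), with an edgeR adjusted p of 6.65e-07, and 51.4% of all tested genes had a lower one. The 5 neuron markers summed to 8.69 and 8.84 CPM in gonads, against 223 and 257 CPM in whole worms, and their part in the *unc-51* difference was not tested.

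The gene *bec-1* (WBGene00000247, chromosome IV, 5661141 to 5664425, minus strand) encodes the Beclin 1 subunit of the class III phosphatidylinositol 3-kinase complex. Gonad libraries held 61.6 and 59.1 CPM against 28.7 and 24.5 CPM in whole worms, with both gonad libraries at least 2.06 times above either whole worm. Its log2 fold change was 1.18 ± 0.15 (SE), with an edgeR adjusted p of 1.83e-07. With upper quartile scaling it was 0.82, under the fold minimum.

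The genes for membrane supply and for phosphoinositide binding were both higher in gonads. The gene *atg-9* (WBGene00020706, chromosome V, 349385 to 359658, plus strand) encodes the membrane-spanning protein of the vesicles that seed the autophagosome. Its level was 121 and 119 CPM in gonads against 29.1 and 33.5 CPM in whole worms, and its gonad libraries were within 1.02 times of each other. Its log2 fold change of 1.94 ± 0.14 (SE; edgeR adjusted p = 3.06e-11) was the highest of the 8, and 79.4% of all tested genes had a lower one.

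The gene *atg-18* (WBGene00018294, chromosome V, 8629174 to 8631327, minus strand) encodes a WIPI-family protein that binds phosphatidylinositol 3-phosphate on the growing membrane. Gonad libraries held 136 and 135 CPM against 50.3 and 59.2 CPM in whole worms, so that the gonad libraries were nearly equal and both above the whole worms. This gave a log2 fold change of 1.31 ± 0.13 (SE), with an edgeR adjusted p of 9.86e-09. With upper quartile scaling it was 0.95, under the fold minimum.

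The gene *atg-7* (WBGene00010882, chromosome IV, 11078682 to 11081055, minus strand) encodes the E1-like enzyme that activates the ubiquitin-like proteins of the pathway, LGG-1 and LGG-2 among them. Its level was 107 and 113 CPM in gonads against 60.1 and 63.4 CPM in whole worms, the smallest separation of the 8. The log2 fold change of 0.83 ± 0.13 (SE) passed the edgeR test, with an adjusted p of 3.74e-06, and stayed under the fold minimum. None of the 8 genes shares exon sequence with another annotated gene on either strand, so overlapping neighbours do not add to their counts in this annotation.

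**Figure D3:**
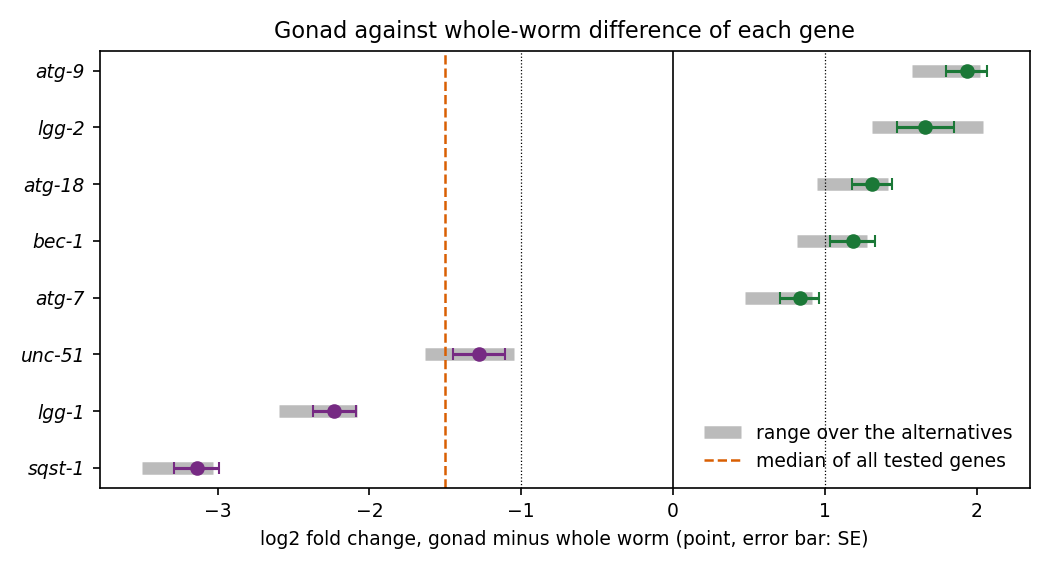
Log2 fold change, gonad minus whole worm, of the 8 genes (points; error bars are SE), with the range over the alternative fits in grey, dotted lines at the fold minimum of 2 and a dashed line at the median of all tested genes, -1.50. No grey range crosses 0, and those of *bec-1* and *atg-18* cross the fold minimum.

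Levels per kilobase of exon (RPKM on the TMM scale) were ordered differently in the groups. In gonads *lgg-2* (106 ± 19.9 RPKM, SD, n = 2) and *lgg-1* (95.3 ± 13.6) stood first, and their ranges overlapped. Then came *atg-18* (75.4 ± 0.385), *atg-7* (52.8 ± 2.05), *bec-1* (45.2 ± 1.33), *atg-9* (33.4 ± 0.427), *unc-51* (6.72 ± 0.850) and *sqst-1* (5.53 ± 0.369), each with a range below that of the gene before it. The top and the bottom of this order were thus an Atg8 gene and the cargo receptor.

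In whole worms *lgg-1* stood alone at 448 ± 6.27 RPKM (SD, n = 2), and *sqst-1* moved from last to second, at 48.7 ± 1.84. The next 3, *lgg-2* (33.4 ± 11.2), *atg-18* (30.4 ± 3.50) and *atg-7* (29.6 ± 1.10), each overlapped the range of the neighbour and could not be ordered. The same held for *bec-1* (19.9 ± 2.24) and *unc-51* (16.3 ± 3.69), while *atg-9* was lowest at 8.72 ± 0.864. The 8 genes summed to 416 and 424 RPKM in gonads and to 617 and 654 RPKM in whole worms.

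A further 50 genes of the pathway, grouped by role, were also in the table, and 49 of them were tested. Of these, 17 were gonad-enriched (34.7%, near the 30.9% of all tested genes) and 10 were whole-worm-enriched (20.4%, where 53.1% of all tested genes were). Another 13 passed the adjusted p under the fold minimum and 9 did not pass it, where 93% of all tested genes passed. The gonad-enriched count was 12 with upper quartile scaling. The counts by role below rest on few genes and were not tested against these shares. Their median log2 fold change was 0.43, against -1.50 for all tested genes. The gene that missed the filter, *atg-10*, which encodes an E2-like enzyme, had 2 to 11 counts per library.

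In the Atg1 complex, *atg-13*, which encodes a regulatory subunit of the kinase, was gonad-enriched at 89.0 and 88.0 CPM against 18.3 and 20.9 CPM in whole worms (log2 fold change 2.17 ± 0.14, SE). The scaffold gene *epg-7* was whole-worm-enriched (-1.10 ± 0.13), in the direction of *unc-51*. The remaining *epg-9* was not called (-0.05 ± 0.20; edgeR adjusted p = 0.827) and changed sign with DESeq2 size factors. Of the other phosphatidylinositol 3-kinase complex genes, 0 of 3 were enriched in either direction by edgeR, although *vps-15* (0.91 ± 0.13) and the kinase gene *vps-34* (-0.43 ± 0.13) passed the adjusted p.

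Beside *atg-9* and *atg-18*, the second WIPI-family gene *epg-6* was gonad-enriched (1.64 ± 0.14, SE). The lipid transfer gene *atg-2*, whose protein acts with ATG-18, was whole-worm-enriched. Gonads held 52.2 and 51.7 CPM against 398 and 392 CPM in whole worms, and the log2 fold change was -2.93 ± 0.14. The partners in this step thus differed in opposite directions.

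Of the 7 other conjugation genes tested, 2 were gonad-enriched and 0 whole-worm-enriched by edgeR, with 3 more past the adjusted p. The gonad-enriched genes were *lgg-3*, which encodes the ubiquitin-like protein ATG12 (84.1 and 84.1 CPM in gonads against 14.6 and 15.6 CPM in whole worms; 2.48 ± 0.14, SE), and *atg-5*, to which that protein is coupled (1.35 ± 0.18, and 0.99 with upper quartile scaling). The protease gene *atg-4.1*, which processes Atg8 proteins, had the lowest value of this group (-0.61 ± 0.15). The ubiquitin-like gene *lgg-3* thus sided with *lgg-2* and not with *lgg-1*.

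Of 5 other cargo receptor and adaptor genes, 3 were gonad-enriched, the opposite direction to *sqst-1*. They were *allo-1*, whose product marks paternal mitochondria for removal after fertilization (336 and 342 CPM in gonads against 100.1 and 106 CPM in whole worms), the mitophagy receptor gene *fndc-1* (1.74 ± 0.15, SE) and *sepa-1*, whose product links P granule proteins to autophagy in embryos. Counts of *sepa-1* were few, at 68 and 29 in gonads and 6 and 0 in whole worms, and its log2 fold change of 4.08 ± 0.72 was 2.97 without whole-worm replicate 2 and 2.27 with limma. Without whole-worm replicate 1 the only whole-worm library has 0 counts, so a fold can only be set against a floor. The mean gonad level of 2.26 CPM was 19.5 times a floor of 3 counts in that library. This is no bound for single libraries, since the gonad libraries held 3.23 and 1.30 CPM. With both whole-worm libraries kept, the lower gonad library was 4.66 times above the higher whole-worm library. The adaptor gene *epg-2*, which acts with *sepa-1* in embryos, was whole-worm-enriched (-2.15 ± 0.20).

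Among endoplasmic reticulum and maturation factors, 2 of 3 were gonad-enriched, of which *epg-3* (1.07 ± 0.17, SE) was under the fold minimum with upper quartile scaling (0.72), library totals (0.92) and limma (0.93), and without gonad replicate 2 (0.94) or whole-worm replicate 1 (0.80). The gene *epg-4*, the counterpart of mammalian EI24, was read at 107 and 122.1 CPM in gonads, against 9.59 and 11.6 CPM in whole worms, and *epg-5*, needed for autophagosomes to mature, had a value of -0.97 ± 0.13 (SE), under the fold minimum. Of 11 tethering and fusion genes, 4 were gonad-enriched (36.4%, near the 30.9% of all tested genes), namely *vps-33.1* (1.94 ± 0.15), *vps-39*, *vps-18* and the syntaxin gene *syx-17* (1.08 ± 0.20), and 1, *vps-41* (-2.02 ± 0.16), was whole-worm-enriched. The value of *syx-17* was under the fold minimum with upper quartile scaling (0.72), library totals (0.91) and limma (0.88), and without gonad replicate 2 (0.94) or whole-worm replicate 2 (0.96). The products of *vps-33.1*, *vps-39*, *vps-18* and *vps-41* are subunits of one complex, HOPS, as are those of *vps-11* and *vps-16*. The values of *vps-11* (0.87 ± 0.13) and *vps-16* (0.28 ± 0.13) passed the adjusted p under the fold minimum, that of *vps-16* not in every alternative. The SNARE gene *snap-29*, with the most counts of this group, was not called (0.05 ± 0.14; edgeR adjusted p = 0.748) and changed sign with library totals, with the authors' log2 values and with upper quartile scaling, where it passed the edgeR test the other way (-0.31, adjusted p = 0.0227).

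Lysosome genes spread the most. The deoxyribonuclease gene *nuc-1* held 0.617 and 0.804 CPM in gonads, against 178 and 184 CPM in whole worms (log2 fold change -7.98 ± 0.20, SE). The cathepsin L gene *cpl-1* (-5.47 ± 0.19) and the membrane glycoprotein gene *lmp-1* (-1.23 ± 0.15) were whole-worm-enriched as well. On the gonad side were the mucolipin channel gene *cup-5* (2.04 ± 0.13), the cystine transporter gene *ctns-1* (1.76 ± 0.17) and *scav-3* (1.32 ± 0.19, and 0.96 with upper quartile scaling).

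Of 8 upstream regulators, 3 were whole-worm-enriched (37.5%, below the 53.1% of all tested genes). The gene *hlh-30* encodes the counterpart of mammalian TFEB, a transcription factor that activates autophagy and lysosome genes. Gonads held 7.88 and 8.40 CPM against 73.2 and 76.8 CPM in whole worms, and the log2 fold change was -3.20 ± 0.16 (SE). The transcription factor gene *mxl-3*, known to act against HLH-30 on lipase genes (-5.99 ± 0.22), and *aak-2* (-2.12 ± 0.14), an AMP-activated kinase gene, were the others. The other AMP-activated kinase gene of the list, *aak-1*, was higher in gonads but under the fold minimum (0.49 ± 0.13). It lost the adjusted p with upper quartile scaling. The gene *daf-15*, which encodes the Raptor subunit of the TOR complex that restrains autophagy, was gonad-enriched, with 732 and 866 CPM in gonads against 336 and 369 CPM in whole worms (1.18 ± 0.15, and 0.82 with upper quartile scaling).

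All 8 genes lie on autosomes, and among the 49 other tested pathway genes the chromosome went with the direction. Of the 9 X-linked ones, 7 were whole-worm-enriched and 0 gonad-enriched by edgeR, with a median log2 fold change of -2.02. They were *epg-7*, *atg-2*, *vps-41*, *lmp-1*, *nuc-1*, *aak-2* and *mxl-3*, and the other two, *atg-16.1* (0.07 ± 0.19, SE) and *dct-1* (-0.36 ± 0.19), were not called. The value of *dct-1* passed the adjusted p in 4 alternatives, at -0.51 with library totals, -0.72 with upper quartile scaling, -0.48 with limma and -0.57 without whole-worm replicate 1. Of the 40 autosomal ones, 3 were whole-worm-enriched (*epg-2*, *cpl-1* and *hlh-30*) and 17 gonad-enriched, with a median of 0.86. Over all tested genes, 79.9% of 1966 X-linked and 48.3% of 10778 autosomal genes were whole-worm-enriched, and 7.73% and 35% were gonad-enriched. The X-linked share among these other genes (77.8%) was thus close to that of all X-linked genes. Their autosomal share (7.5%) was below that of all autosomal genes. With the 8 genes included, 6 of 48 autosomal genes (12.5%) were whole-worm-enriched. The X-linked count was 7 in the 11 alternative fits and 5 at a fold minimum of 4, which *epg-7* and *lmp-1* did not reach. The autosomal count was 3 to 5. The list was put together by hand, the alternatives for this split were chosen after seeing the data, and these shares were not tested.

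**Figure D4:**
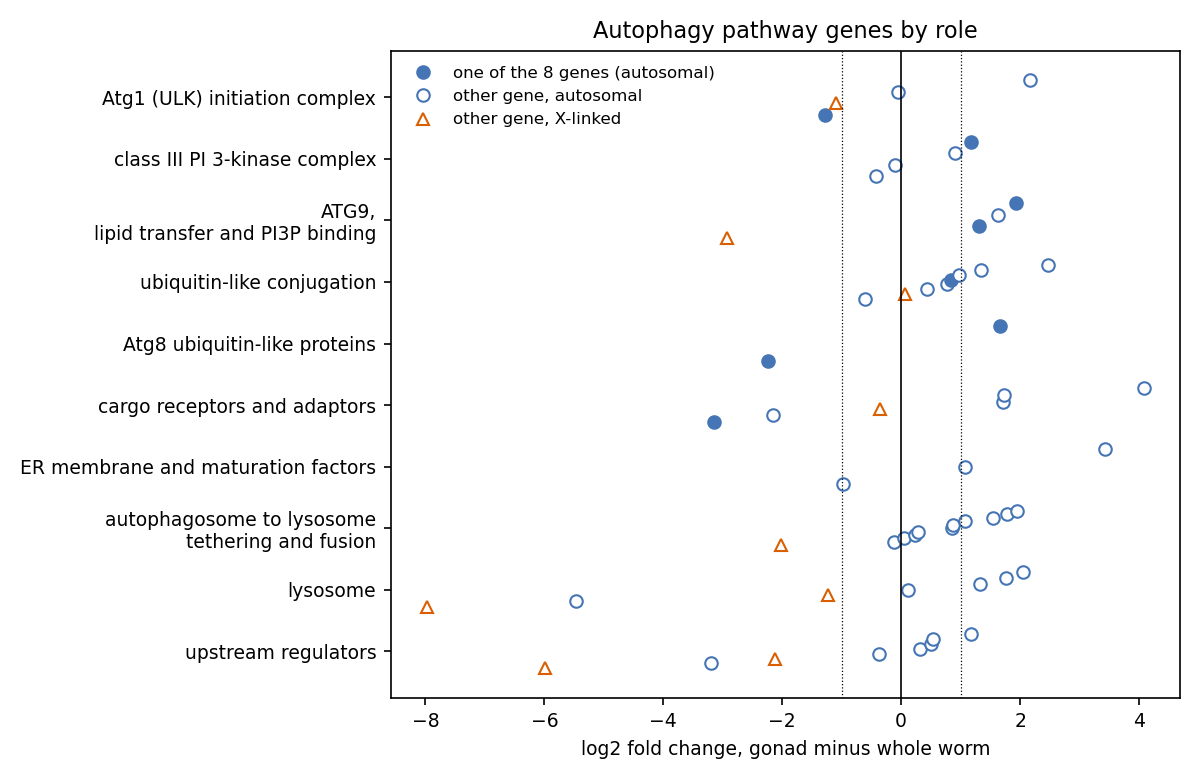
Log2 fold change, gonad minus whole worm, of the 57 tested pathway genes by role; filled circles are the 8 genes, open circles other autosomal genes and open triangles other X-linked genes, with dotted lines at the fold minimum of 2. Values run from -7.98 for *nuc-1* to 4.08 for *sepa-1*, and every role has values on both sides of 0.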

How the data were processed

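Per the labels' protocols, total RNA was depleted of ribosomal RNA and amplified with the Ovation RNA-Seq System V2 kit. The authors deposited raw counts per gene and a log2 table. A deposited log2 value was, to within 5e-05, the logarithm of 8 plus the count after scaling every library to the average total. Which aligner and counting program made the counts, on which build and with what strand setting, is not given in the sources used here. One repeated row was left out of 20182. Gene names, coordinates and exon lengths came from Ensembl release 115 (WBcel235), which may not be the authors' annotation. Counts were tested with edgeR 4.0.16 (R 4.3.3; TMM, filterByExpr with minimum count 10 and total 15, robust quasi-likelihood fit, group as the only term), with Benjamini-Hochberg adjustment over 13101 genes. The script was tested on simulated data. SE came from the F statistic. Ratios and levels per length used the union of exons. Alternatives used DESeq2 1.42.0, limma 3.58.1, other scalings and left-out libraries. Chi-square per degree of freedom was 18.9 between gonad libraries and 16.9 between whole worms, so each counted separately. The libraries carry no stated molecular identifiers, so counting limits cover counting error only. All 8 members are named, and other pathway genes by role: the one with most counts, the extremes of fold change and, after their values were seen, further enriched genes and some genes set beside them. Members and lists were chosen with earlier results of these data known.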

Additional observations from a re-analysis of the deposited data

How the results depend on the processing

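All 8 genes kept their direction and stayed past the adjusted p in the 88 fits of single genes over 11 alternatives. At a fold minimum of 4 the whole-worm-enriched count was 2 in place of 3, and 8 in place of 10 for the other pathway genes. The gonad-enriched count of 4 fell to 2 with upper quartile scaling. With a fold minimum of 4 it was 0, and 5 for the other pathway genes in place of 17. That 17 was 12 with upper quartile scaling, where *atg-5*, *epg-3*, *syx-17*, *scav-3* and *daf-15* fell under the fold minimum, and 15 with library totals and with limma. Leaving out single libraries gave 4 gonad-enriched and 3 whole-worm-enriched genes each time. Without division by exon length the mean log2 ratio of *lgg-1* to *lgg-2* was -0.70 in gonads and 3.24 in whole worms. The median of all tested genes moved from -1.50 by -0.16 with library totals, by -0.36 with upper quartile scaling and by 0.16 with limma on the authors' log2 values, while the median of the 8 genes moved from 1.01 to 0.85, 0.65 and 0.85. Signs changed for *epg-9* (0.035 with DESeq2 size factors, 0.036 in DESeq2's own test), for *atg-16.1*, *snap-29* and *laat-1* (-0.10, -0.11 and -0.048 with library totals, -0.30, -0.31 and -0.25 with upper quartile scaling, -0.086, -0.11 and -0.047 with limma) and, with upper quartile scaling, for *vps-16* (-0.079), *ykt-6* (-0.12) and *raga-1* (-0.053). Over the left-out libraries, values ran from -0.23 to 0.12 for *epg-9*, -0.24 to 0.055 for *epg-8*, -0.13 to 0.23 for *atg-16.1*, -0.36 to 0.12 for *rab-7* and -0.10 to 0.23 for *snap-29*. The cause was not tested. With the replicate number as a block, 4 and 3 of the 8 genes were enriched as before, and *ykt-6* (0.24, edgeR adjusted p = 0.0144) passed. In alternatives that kept every library, *epg-8*, *atg-4.2*, *dct-1*, *rab-7* and *ykt-6* gained the adjusted p in some fits, in the direction of the main value. In some, *vps-16*, *raga-1*, *let-363* and *aak-1* lost it, *vps-16* and *raga-1* also with upper quartile scaling, where their signs changed. Across these alternatives 7 to 11 of the 49 other genes did not pass. The value of *rsks-1* was -0.37 in the main fit and -0.34 without gonad replicate 2. The replicate 1 minus 2 differences of the groups correlated at 0.218 across genes, but 2 shared numbers do not show pairing. A left-out library leaves 1 sample in its group, which is assumed to vary like the others. A count of 0 allows up to 0.116 to 0.142 CPM, for counting error only, far below every level of the 8 genes.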

Other observations

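By distance over the 4 log2(CPM + 1) values, the named gene nearest to *lgg-1* was *pcca-1* (distance 0.199, log2 fold change -2.19), and the one nearest to *sqst-1* was *dao-3* (0.208, -3.12). For *bec-1* it was *aars-1* (0.0711, 1.17), for *atg-9* *ufd-1* (0.0856, 1.99), for *atg-7* *mrps-15* (0.0851, 0.86) and for *atg-18* *vep-1* (0.118, 1.35). The nearest to *unc-51* was *sea-2* (0.289, -1.39), and the nearest to *lgg-2* was *Y50D7A.8* (0.161, 1.74). None of the 8 genes was nearest to another gene of the pathway list. Only the 1 nearest of all named tested genes was taken, and the distance mixes level with the difference between groups. Whether the pathway genes vary together was not tested.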
